A study of Sus scrofa with 9 samples.

Results

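A set of 7 WNT signalling genes was followed in the molar germs of pig fetuses, namely WNT10B, FZD5, DKK2, CTNNB1, TCF7L2, TCF4 and CTBP2. They were found by taking every probe set, a set of short probes on the array that reads 1 transcript, whose only platform symbol was 1 of these names. This gave 14 probe sets of the 7 genes among 23999 probe sets tested (24123 with the array controls) and 6765 genes with 1 symbol. CTNNB1 had 5 probe sets, DKK2, TCF7L2 and CTBP2 had 2 each, and WNT10B, FZD5 and TCF4 had 1 each. No filter on low signal was used, so all 14 were tested.

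The tissue was the additional molar germ with its dental lamina, cut from the mandible of Wuzhishan miniature pigs, and no group was treated or genetically altered. At E50 (embryonic day 50) the first molar M1 was at cap stage and the second molar M2 had not begun. At E60 M1 was at bell stage and M2 had begun, and at E70, which the submitters call a control, M1 was at late bell stage while M2 had changed little. Each stage had 3 Affymetrix porcine arrays, described as biological triplicates, and germs of the same stage and litter were pooled for RNA, so the p-values measure the spread between these arrays only.

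WNT ligands are secreted proteins that bind Frizzled receptors on nearby cells. In the canonical branch this spares beta-catenin from breakdown, and beta-catenin then enters the nucleus and switches on target genes with factors of the TCF and LEF family, while secreted antagonists and nuclear co-repressors damp the response. In mice the pathway is active in the dental epithelium and mesenchyme and is needed for teeth to form past the bud.

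The deposited value was the MAS5 signal, a linear intensity scaled to the same target on every array. Signal depends on the probes, so a level is read between stages of 1 probe set and not between probe sets, and a sum of marker signals only describes its arrays. Changes are log2 differences of stage means, later stage minus earlier, from limma with Benjamini-Hochberg adjustment over all 23999 probe sets, and a change is called at an adjusted p under 0.05. For counts over genes, each gene was represented by its brightest probe set.

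The E50 arrays stood apart from the others, and this touches every comparison with E50 and, through the spread, the test of E70 against E60. Their median signal lay between 261 and 352, against 164 to 173 at E60 and 173 to 184 at E70. Their background, taken as the 95th percentile of 23 control probe sets for tags and genes that pig RNA lacks, lay between 77.7 and 379, against 37.9 to 54.4 on the E60 arrays and 38.1 to 55.8 on the E70 arrays. The 3' to 5' signal ratio of EF1A lay between 49.3 and 55.8 at E50, against 1.42 to 1.56 at E60 and 1.35 to 1.47 at E70, and the hybridisation spike-ins averaged 58370 to 66123 at E50, against 4150 to 4268 and 3086 to 3938. The SD within a stage had a median over all probe sets of 1.03 on the E50 arrays, 0.26 on the E60 arrays and 0.32 on the E70 arrays, on the log2 scale. Changes from E50 cannot be told apart from these differences between the arrays. Of 10 epithelial markers 3 were measured, KRT19, CDH1 and EPCAM, and these lay above background on every E60 and E70 array. At E50 CDH1 and EPCAM were above it on every array and KRT19 on 2 of 3. Of 6 measured mesenchyme markers 5 were above background on every E50 array, 6 on every E60 array and 5 on every E70 array. Transcripts of both tissues of the germ were thus measured.

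Over the 3 stages the moderated F-test called 4 of the 7 genes, FZD5, TCF7L2, TCF4 and CTBP2, against 20.6% of all genes. At E60 against E50 it was 3 genes against 20.9% of all genes, with CTBP2 higher (7.20% of all genes) and TCF7L2 and TCF4 lower (13.7%). At E70 against E60 only FZD5 was called, against 0.724% of all genes, and it was lower (0.606%). At E70 against E50 it was 4 genes against 21.6% of all genes, with CTBP2 higher (7.33%) and FZD5, TCF7L2 and TCF4 lower (14.3%). Any 2 of these comparisons share the 3 arrays of a stage, so the counts are not independent. The 7 genes were chosen with earlier results of these data known. The shares beside them therefore only describe the set and do not test it. The arrays of both stages did not overlap for 6 of 7 genes at E60 against E50, against 45.7% of all genes, for 1 of 7 at E70 against E60, against 34.1%, and for 5 of 7 at E70 against E50, against 43.5%. The median change of the 7 genes was 0.13, -0.14 and -1.40 in the 3 comparisons, against -0.18, 0.05 and -0.11 over all genes. Another scaling shifts all changes from E50 together. With each array centred on its median, the typical probe set moved up by 0.77 at E60 against E50 and by 0.71 at E70 against E50, and the share of calls that were higher was then 83.7% and 80.6%, against 42.5% and 43.4% with the deposited scaling.

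**Figure D1:**
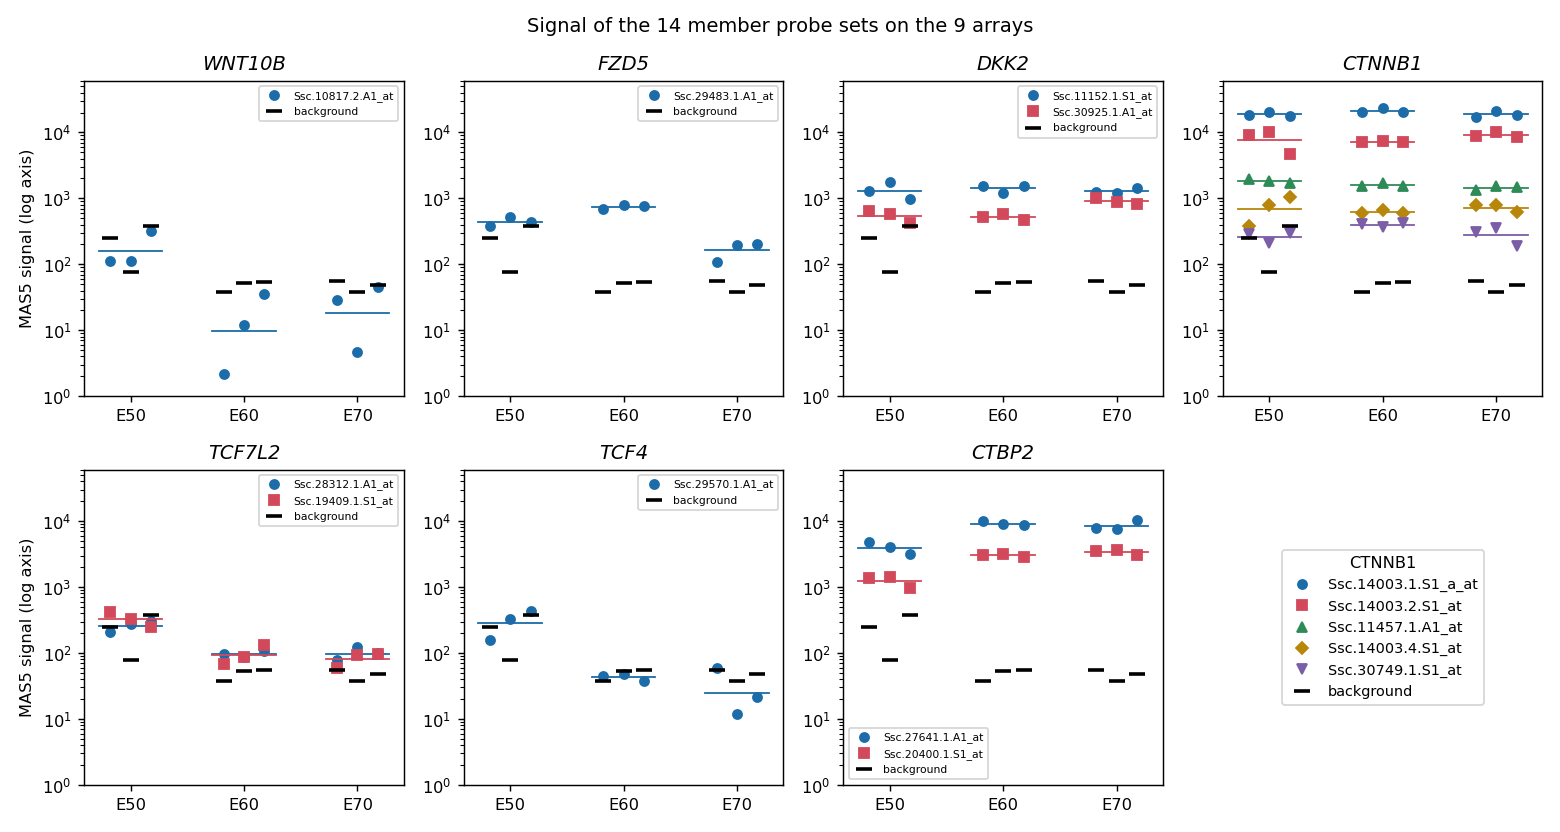
MAS5 signal (log axis) of the 14 probe sets by stage, with 1 point per array, coloured lines at the geometric mean of the 3 arrays of a stage, and black dashes at the background of each array. FZD5 stood at 680 to 785 on the E60 arrays and at 108 to 203 on the E70 arrays, both CTBP2 probe sets were higher on all E60 and E70 arrays than on the E50 arrays, and WNT10B, TCF7L2 and TCF4 lay near the background of at least 1 stage.

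WNT10B is a ligand that mice express in the dental epithelium. Its probe set Ssc.10817.2.A1_at read 113, 111 and 321 on the E50 arrays, 2.19, 11.8 and 35.2 on the E60 arrays, and 28.4, 4.63 and 44.9 on the E70 arrays. All E60 and E70 signals were below the background of their own array, and at E50 only the array with 111, which had the lowest background of that stage, was above it. The geometric mean of the 3 E50 arrays, 159, was itself under the geometric mean background of its stage, 194, so no fold is given. Neither later stage passed the test against E50 (adjusted p = 0.0548 at E60 and 0.110 at E70), and both comparisons passed when signals under 16 were set to 16 (adjusted p = 0.0125 and 0.0198). In bulk tissue, fewer cells that make a transcript and less of it per cell cannot be told apart, here and for every gene that follows.

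FZD5, a Frizzled receptor, had the largest change of the 7 genes between E60 and E70. Its probe set Ssc.29483.1.A1_at read 385, 522 and 434 at E50, 680, 785 and 773 at E60, and 108, 195 and 203 at E70, above background on all 9 arrays. Every E60 array was above every E50 array, and every E70 array was below all arrays of the other stages.

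The geometric mean signal of FZD5 was 443 on the E50 arrays, 744 on the E60 arrays and 163 on the E70 arrays (SD 0.22, 0.11 and 0.51 on the log2 scale, n = 3 each). FZD5 fell by 2.19 at E70 against E60 (SE 0.30, adjusted p = 0.0382), 4.58-fold, a size larger than that of 96.7% of all probe sets in this step. It fell by 1.45 at E70 against E50 (SE 0.30, adjusted p = 0.0171). At E60 against E50 its change was 0.75 (SE 0.30, adjusted p = 0.127) and did not pass, although the arrays did not overlap. The difference between the steps, the later change minus the earlier one, was -2.94 (SE 0.52, adjusted p = 0.0444), and FZD5 was the only 1 of the 7 genes called there, against 2.42% of all genes.

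The call at E70 against E60 rested on few arrays. It held in 2 of 9 fits with 1 array removed, those without the second or the third E50 array, and was lost in the other 7 (highest adjusted p = 0.193, without the second E60 array), while its size stayed between -2.35 and -1.90. A fit limited to both those stages kept it (adjusted p = 0.0393). Array weights, which count the E50 arrays less, kept it too (-2.12, SE 0.23, adjusted p = 0.00460). So did median centring (adjusted p = 0.0494), a floor of 16 (0.0252) and leaving out dim probe sets (0.0147). Quantile normalization did not (-1.99, adjusted p = 0.0747), nor did adding the replicate number to the fit. In all, the call held in 8 of 17 alternatives. The difference between the steps held in 3 of those 9 fits, the ones without an E50 array. The E70 against E50 change held in all 9 of those fits, but had adjusted p = 0.132 and a value of -0.74 after median centring and adjusted p = 0.0629 after quantile normalization, 0.113 with array weights and 0.0769 in a fit of the E70 and E50 arrays.

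Over the background of its own array, FZD5 stood at 1.55, 6.72 and 1.15 at E50, at 17.9, 14.9 and 14.2 at E60, and at 1.94, 5.13 and 4.23 at E70. On this ratio too all E60 arrays were above all others, while E50 and E70 overlapped. Bone markers ran in different ways. Of 5 listed genes 4 were measured, and none had a signal of 0 on any array. The geometric mean signal of IBSP was 2012 on the E50 arrays, 10397 on the E60 arrays and 189 on the E70 arrays, and that of BGLAP was 60.7, 284 and 62.8, so both were highest at E60, although BGLAP passed in no comparison and was below background on all E50 arrays. SP7 had 194, 9.39 and 37.2, above background on 1, 1 and 0 of 3 arrays, and ALPL had 887, 702 and 1497, so both were lowest at E60. By the test IBSP was higher and SP7 lower at E60 against E50, and IBSP was lower at E70 than at either earlier stage. The summed signal of the 4 was 2717 to 3660 on the E50 arrays and 10834 to 11988 on the E60 arrays. On the E70 arrays it was 1557 to 2055. The sum had the same order of stages as IBSP, which gave most of it at E50 and E60, while ALPL did at E70. The part of bone tissue in the change of FZD5 was not tested.

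Among 4662 candidate genes, the genes whose log2 signal was most like that of FZD5 over the 9 arrays were NPG4, a protegrin, an antimicrobial peptide of pig neutrophils (r = 0.980), and IBSP, bone sialoprotein (r = 0.965). These correlations are descriptions over arrays that share 3 stages. The geometric mean signal of NPG4 was 462 on the E50 arrays, 757 on the E60 arrays and 73.4 on the E70 arrays. Both had their peak at E60 and their lowest level at E70, as FZD5 did.

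**Figure D2:**
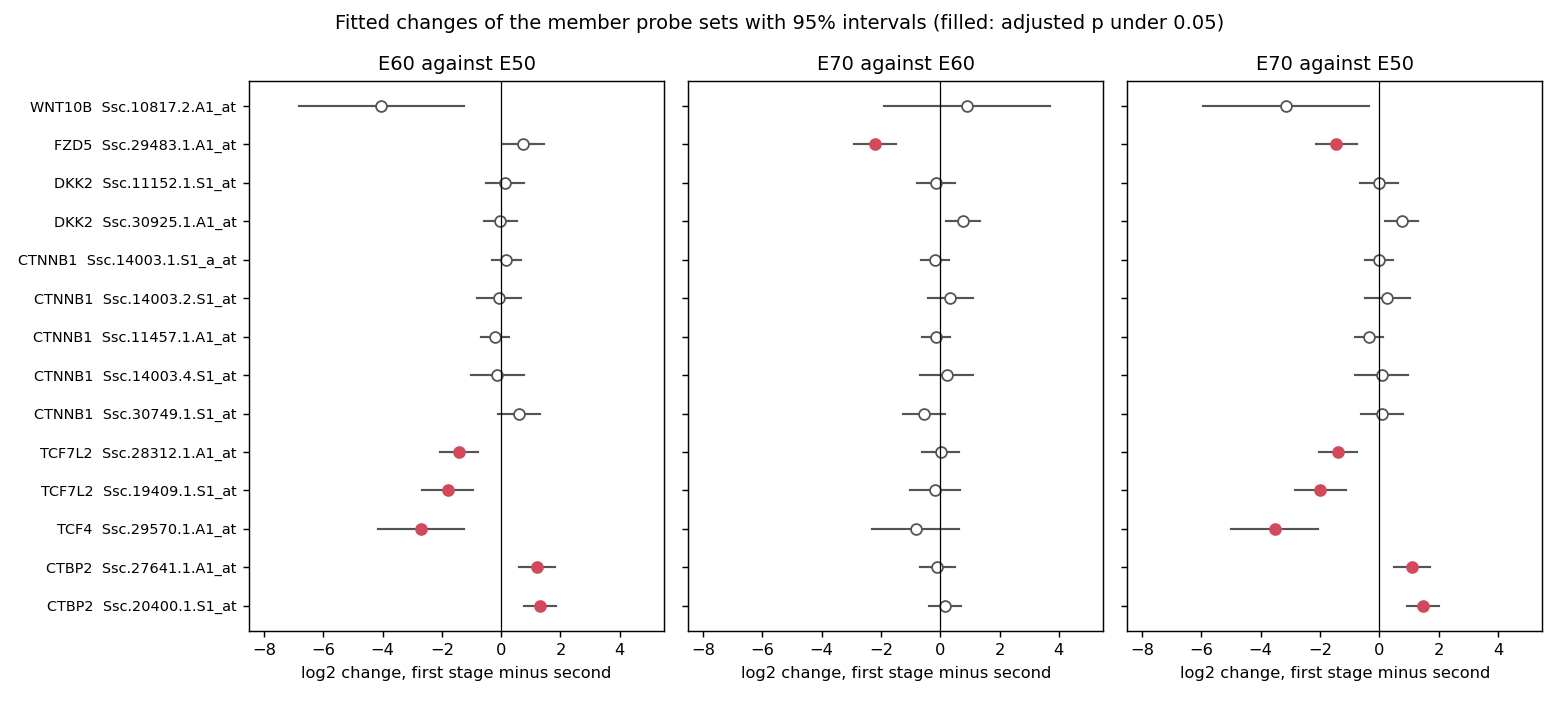
Log2 change, later stage minus earlier, of each probe set in the 3 comparisons with its 95% interval from limma, filled where the adjusted p is under 0.05. CTBP2 was higher, and TCF7L2 and TCF4 lower, at E60 and at E70 than at E50, FZD5 was the only gene called at E70 against E60 (-2.19), and the intervals of CTNNB1 and of the first DKK2 probe set crossed 0 in every comparison.

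DKK2 is a secreted antagonist that binds the LRP co-receptors of the pathway. The study also measured it by quantitative PCR. The primers are shown because they name the transcript by the same gene number as the array's DKK2 probe sets. Their place relative to the probes was not analysed here.
DKK2 forward primer: cgtcacttctggaccaaaatc
DKK2 reverse primer: cagtcacaccgctggaagat

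The brighter DKK2 probe set, Ssc.11152.1.S1_at, read 1269, 1756 and 976 at E50, 1533, 1210 and 1543 at E60, and 1245, 1208 and 1416 at E70. The 3 stages overlapped. Its changes were 0.13 at E60 against E50 (95% interval -0.51 to 0.78), -0.14 at E70 against E60 (-0.79 to 0.50) and -0.01 at E70 against E50 (-0.65 to 0.63), with an F-test adjusted p of 0.912.

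The other probe set, Ssc.30925.1.A1_at, read 636, 572 and 418 at E50, 528, 579 and 474 at E60, and 1006, 873 and 819 at E70. On this one all E70 arrays were above all arrays of the other stages. Its changes were 0.77 at E70 against E60 (SE 0.24, adjusted p = 0.409) and 0.75 at E70 against E50 (SE 0.24, adjusted p = 0.0728), and neither passed. The change against E50 passed after median centring (1.46, adjusted p = 0.0175) and when dim probe sets were left out (adjusted p = 0.0363), and that against E60 passed with array weights (0.74, adjusted p = 0.0413). The log2 signals of both DKK2 probe sets were unrelated over the 9 arrays (r = -0.01), so the array gave no shared course for DKK2. The most similar genes to the brighter one were FCF1 (r = 0.912), which acts in ribosome assembly, and NMNAT1 (r = 0.884), an enzyme of NAD synthesis.

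CTNNB1 encodes beta-catenin, which carries the signal into the nucleus and also links cadherins to the cytoskeleton. Its brightest probe set, Ssc.14003.1.S1_a_at, read 18186, 20075 and 18014 at E50, 20161, 23216 and 20270 at E60, and 17115, 20954 and 18255 at E70. The E60 arrays lay just above the E50 arrays, and the E70 arrays overlapped with both. The changes were 0.18 at E60 against E50 (95% interval -0.30 to 0.65), -0.18 at E70 against E60 (-0.66 to 0.30) and -0.0022 at E70 against E50 (-0.48 to 0.47). CTNNB1 had the smallest spread of the 7 genes at E50, with an SD of 0.09 on the log2 scale. The median over all probe sets, dim ones included, was 1.03.

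The other 4 probe sets of CTNNB1 did not pass either, and F-test adjusted p over the 5 ranged over 0.313 to 0.913. Ssc.11457.1.A1_at read 1996, 1832 and 1720 at E50, 1535, 1701 and 1562 at E60, and 1341, 1534 and 1475 at E70, with each later stage below the earlier ones. Its changes were small, at -0.21, -0.14 and -0.35 for E60 against E50, E70 against E60 and E70 against E50. Ssc.30749.1.S1_at read 288, 209 and 296 at E50, 413, 364 and 421 at E60, and 308, 359 and 189 at E70, and so was higher on every E60 array than on all others (0.61 at E60 against E50, adjusted p = 0.201, and -0.53 at E70 against E60, adjusted p = 0.826). The other probe sets, Ssc.14003.2.S1_at and Ssc.14003.4.S1_at, had changes between -0.13 and 0.34.

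Correlations between the CTNNB1 probe sets over the 9 arrays lay between -0.36 and 0.43, and no pair of them ran together. After median centring the E60 against E50 change of the brightest one was 0.95 and passed (adjusted p = 0.0307), and that of Ssc.30749.1.S1_at was 1.38 (adjusted p = 0.0178). The genes most like the brightest probe set were UBE2D3 (r = 0.900), an enzyme that passes on ubiquitin, and PPRC1 (r = 0.883), a co-activator.

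TCF7L2 is a DNA-binding partner of beta-catenin, and its protein has long been called TCF-4. Its brightest probe set, Ssc.28312.1.A1_at, read 205, 271 and 310 at E50, 97.1, 87.4 and 108 at E60, and 77.6, 123 and 98.6 at E70. The other, Ssc.19409.1.S1_at, read 414, 331 and 246 at E50, 67.6, 86.2 and 134 at E60, and 58.9, 94.4 and 97.4 at E70. On both, every E60 and E70 array was below every E50 array, and E60 and E70 overlapped.

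TCF7L2 fell by 1.41 at E60 against E50 (SE 0.27, adjusted p = 0.0140), 2.66-fold, and fell by 1.40 at E70 against E50 (SE 0.27, adjusted p = 0.0133). The other probe set fell by 1.81 (SE 0.37, adjusted p = 0.0163) and fell by 1.99 (SE 0.37, adjusted p = 0.0110). At E70 against E60 the changes were 0.01 (95% interval -0.63 to 0.65) and -0.18 (-1.03 to 0.68). Both probe sets ran together over the 9 arrays (r = 0.896).

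The falls from E50 were close to the background of the E50 arrays. Over the background of its own array, Ssc.28312.1.A1_at stood at 0.829, 3.49 and 0.820 at E50, at 2.56, 1.66 and 1.99 at E60, and at 1.39, 3.23 and 2.06 at E70. Ssc.19409.1.S1_at stood at 1.67, 4.26 and 0.650 at E50, at 1.78, 1.63 and 2.47 at E60, and at 1.05, 2.48 and 2.03 at E70. On this ratio the stages overlapped for both probe sets. The brightest was above background on 1 of 3 E50 arrays and the other on 2 of 3, and both were above it on all E60 and E70 arrays. After quantile normalization the change of the brightest was -0.59 (adjusted p = 0.224) at E60 against E50 and -0.64 (adjusted p = 0.190) at E70 against E50, and after median centring it was -0.64 (adjusted p = 0.115) and -0.69 (adjusted p = 0.0911). Its calls were also lost with array weights (adjusted p = 0.0655 and 0.0691), at E60 against E50 without the first or the second E60 array (highest adjusted p = 0.0585) and, at E70 against E50, without the third E70 array (adjusted p = 0.0503) or with only both stages fitted (adjusted p = 0.0665). The calls of Ssc.19409.1.S1_at were lost after quantile normalization (adjusted p = 0.103 at E60 and 0.0569 at E70), after median centring (0.109 and 0.0591) and with array weights (0.0955 and 0.0862), and at E60 also without the first or the second E60 array and with only both stages fitted (0.0501).

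TCF4 is a different gene from TCF7L2. It encodes a basic helix-loop-helix factor, also known as E2-2 or ITF2, that studies of human cells list both as a partner of other such factors and as a target of beta-catenin. The study made an in situ hybridisation probe under the name TCF4 and describes it as a factor downstream of WNT, a role that is more often given to TCF7L2. The sense primer of that probe is shown because the name leaves the gene uncertain. Which of both genes it matches was not analysed here.
TCF4 sense primer: ggctacccttcctcaaaacc

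The TCF4 probe set Ssc.29570.1.A1_at read 159, 328 and 440 at E50, 45.0, 48.8 and 38.2 at E60, and 59.8, 11.8 and 21.3 at E70. Every E60 and E70 array was below every E50 array. It was above the background of the array on 2 of 3 arrays at E50, 1 of 3 at E60 and 1 of 3 at E70, so most of the later values are not well above background.

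TCF4 fell by 2.70 at E60 against E50 (SE 0.63, adjusted p = 0.0253) and fell by 3.53 at E70 against E50 (SE 0.63, adjusted p = 0.00955). The sizes of these falls are uncertain, since the geometric mean at E60, 43.8, and at E70, 24.7, were both under the background of their stage, 47.7 and 46.7. At E70 against E60 it had -0.83 (95% interval -2.29 to 0.63). Over the background of the array, TCF4 stood at 0.642, 4.22 and 1.16 at E50, at 1.19, 0.925 and 0.702 at E60, and at 1.07, 0.310 and 0.443 at E70, and the stages overlapped. Without any 1 of the E60 arrays the E60 call was lost (highest adjusted p = 0.0819), as it was after median centring (-1.92, adjusted p = 0.0581) and with array weights (adjusted p = 0.130). The E70 call held in all 9 fits with 1 array removed and was lost only with array weights, which count the E50 arrays less (adjusted p = 0.0628).

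Markers of other tissues also differed between these stages. Their differences from E50, too, cannot be told apart from the differences between the arrays. Over all genes 13.7% were called lower and 7.20% higher at E60 against E50, and 14.3% and 7.33% at E70 against E50. At E70 against E60 it was 0.724% in either direction. Of 8 listed skeletal muscle genes 7 were measured, and 5 were lower at E60 and 6 lower at E70 than at E50, with a summed signal of 5058 to 6077 on the E50 arrays, 1217 to 1378 on the E60 arrays and 490 to 518 on the E70 arrays. CKM was the muscle gene not called in any comparison. Of 6 macrophage genes 4 were measured, and at E60 as at E70 2 were lower than at E50, AIF1 and C1QC, and 1 was higher, C1QA, which was below background on all E50 arrays. Their summed signal was 3143 to 4632 on the E50 arrays, 1170 to 1364 on the E60 arrays and 572 to 761 on the E70 arrays. Of 4 blood genes 2 were measured, with HBB higher at E60 and at E70 than at E50 and ALAS2 lower at E70 than at E50. Of 5 nerve and glia genes 2 were measured, with UCHL1 higher and S100B lower at E60 and at E70 than at E50. Of 5 endothelium genes 5 were measured, and only ENG was called, lower at E60 and at E70 than at E50. Of 5 ameloblast genes 3 were measured, and none was called.

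Of the 11 mesenchyme markers 6 were measured. At E60 against E50 POSTN was higher and VIM and MSX1 were lower, at E70 against E60 BMP4 was higher and POSTN lower, and at E70 against E50 BMP4 was higher and VIM and MSX1 were lower. Their summed signal, most of which came from VIM, was 121403 to 133440 on the E50 arrays, 81002 to 84607 on the E60 arrays and 54746 to 93644 on the E70 arrays. Of the 10 epithelial markers 3 were measured, with a summed signal of 1748 to 3234, 3829 to 3873 and 7132 to 8134 in the 3 stages. None of these was called at E60 against E50, and CDH1 and EPCAM were higher at E70 than at E50. The part of tissue makeup in the changes of TCF4, TCF7L2 and WNT10B was not tested.

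**Figure D3:**
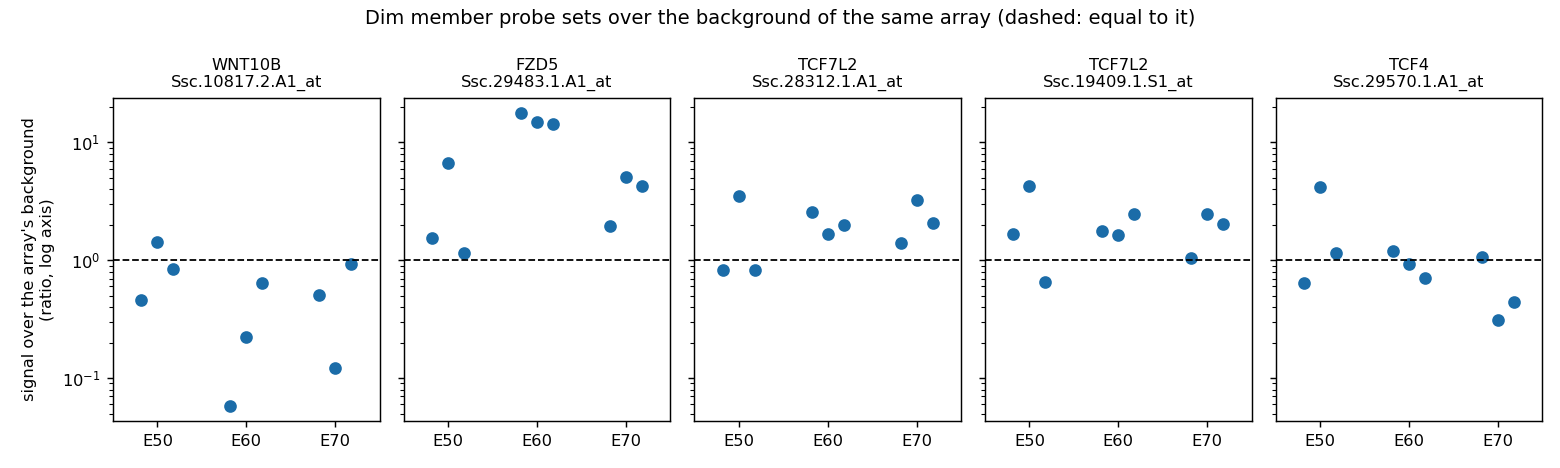
Ratio of signal to the background of the same array (log axis, dashed line at a ratio of 1) for the 5 probe sets of WNT10B, FZD5, TCF7L2 and TCF4, with 1 point per array. FZD5 stood at 14.2 to 17.9 on the E60 arrays, above all others, while the stages overlapped for TCF7L2 and TCF4 and WNT10B was above 1 on only 1 array.

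CTBP2, a co-repressor that many DNA-binding factors recruit and that is counted among the nuclear brakes of WNT targets, was the gene of the 7 that rose. Its brightest probe set, Ssc.27641.1.A1_at, read 4895, 4060 and 3127 at E50, 9884, 9036 and 8584 at E60, and 7884, 7622 and 10247 at E70. The other, Ssc.20400.1.S1_at, read 1370, 1396 and 969 at E50, 3024, 3195 and 2864 at E60, and 3465, 3684 and 3045 at E70. On both, all E60 and E70 arrays were above all E50 arrays, and the E60 and E70 arrays overlapped. Both were above background on all 9 arrays.

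CTBP2 rose by 1.21 at E60 against E50 (SE 0.25, adjusted p = 0.0184), 2.31-fold, and by 1.10 at E70 against E50 (SE 0.25, adjusted p = 0.0237), 2.15-fold. The other probe set rose by 1.30 (SE 0.23, adjusted p = 0.0111) and 1.46 (SE 0.23, adjusted p = 0.00662). The size of these changes was not extreme among all probe sets, since 58.3% of them had a smaller change than the brightest CTBP2 probe set at E60 against E50. At E70 against E60 the changes were -0.11 (95% interval -0.70 to 0.49) and 0.16 (-0.38 to 0.71).

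The calls of Ssc.20400.1.S1_at held in all 16 alternatives at both later stages (highest adjusted p = 0.0498 and 0.0480). Those of the brightest were lost without any 1 of the E60 arrays at E60 against E50 (highest adjusted p = 0.0756), without any 1 of the E70 arrays at E70 against E50 (highest adjusted p = 0.0881), and when only the 2 stages compared were fitted (adjusted p = 0.0595 and 0.0987). Array weights, which count the E50 arrays less, also removed both calls of the brightest (adjusted p = 0.0765 at E60 and 0.0883 at E70). So did the replicate number as a block (adjusted p = 0.0551 and 0.0656). Both probe sets ran together (r = 0.933). The genes most like CTBP2 over the 9 arrays were RNFT1 (r = 0.988), whose mean signal was 1072 on the E50 arrays, 3378 on the E60 arrays and 2984 on the E70 arrays, and TRDMT1 (r = 0.983), an RNA methyltransferase, with 133, 1118 and 922. All 3 genes were low at E50 and close to level from E60 on. The E50 mean of TRDMT1, 133, was under the geometric mean background of the E50 arrays, 194, so the size of its rise is uncertain.

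Within stages the brightest probe sets of the 7 genes had a lower median SD than all probe sets at E50 and E60. All probe sets include dim ones, and the comparison was not matched for signal. Their median SD on the log2 scale was 0.32 on the E50 arrays, 0.15 on the E60 arrays and 0.33 on the E70 arrays, against 1.03, 0.26 and 0.32 over all probe sets. At E50 all 7 were below the median of all probe sets, at E60 6 were, and at E70 3. WNT10B had the largest SD of the 7 at every stage, up to 2.02 at E60.

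The rest of the pathway was read from a list of 132 other WNT genes, of which 35 had a probe set with their symbol. This list too was made with earlier results of these data known. None of the 22 other listed ligands was among them, so WNT10B was the only ligand followed. By the test, 3 were called higher and 3 lower at E60 than at E50, and 7 higher and 4 lower at E70 than at E50. At E70 against E60 none was called. These are 6, 0 and 11 of 35, against 20.9%, 0.724% and 21.6% of all genes. For the middle comparison 8 of the 35 had an unadjusted p under 0.05 in limma, of which 7 were higher and 1 lower at E70. Over all genes it was 655 of 6765, of which 302 were higher and 353 lower. The median change of the list was 0.07, 0.20 and 0.33 in the 3 comparisons.

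Of the 4 other receptors and co-receptors, FZD2, a Frizzled, was higher at E70 than at E50, and FZD4, FZD6 and LRP6 were not called. FZD2 read 661, 533 and 1152 at E50, 921, 875 and 961 at E60, and 2029, 2517 and 1782 at E70. Every E70 array was above all others, whereas for FZD5 every E70 array was below all others. FZD2 rose by 1.50 at E70 against E50 (SE 0.32, adjusted p = 0.0196), and its change at E70 against E60 was 1.18 (adjusted p = 0.310). The difference between the changes of both receptors was not tested.

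Of the 4 other inhibitors that act outside the cell, APCDD1, a membrane inhibitor of WNT signals, rose by 1.54 at E70 against E50 (SE 0.23, adjusted p = 0.00550). It read 1468, 1029 and 1564 at E50, 2120, 2287 and 2327 at E60, and 3692, 4115 and 3831 at E70, with no overlap between any stages, and its other probe set rose by 2.12 (adjusted p = 0.00196). DKK1, which like DKK2 binds LRP co-receptors, read 483, 563 and 468 at E50, 346, 280 and 336 at E60, and 722, 1043 and 1581 at E70. Its arrays did not overlap between any stages, and the F-test called it (adjusted p = 0.0221), but none of its pairs of stages passed (1.73 at E70 against E60, adjusted p = 0.109, and 1.07 at E70 against E50, adjusted p = 0.0531). DKK3 and SFRP1 were not called.

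In the destruction complex, 1 of 5 measured genes was called at E60 and at E70 against E50, beside 20.9% and 21.6% of all genes. CUL1, a scaffold of the ubiquitin ligase that marks beta-catenin, rose by 0.82 at E60 against E50 (SE 0.21, adjusted p = 0.0345) and by 1.11 at E70 against E50 (adjusted p = 0.0118). Of 4 cytoplasmic transducers, PRKCA, a protein kinase C, was called higher in both comparisons on its brightest probe set, which was below background on all E50 arrays and read under the E50 background at E60, so that no fold is given. Its other probe set went the opposite way (-5.52 at E60 against E50, adjusted p = 0.0266, and -4.76 at E70 against E50, adjusted p = 0.0424), and the direction of PRKCA is unsettled.

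Among 7 other nuclear effectors and co-regulators, SMARCA4 was called at E60 against E50 and LEF1 and SMARCA4 at E70 against E50, beside 20.9% and 21.6% of all genes. LEF1, a partner of beta-catenin like TCF7L2 and one that mouse teeth need, read 3101, 4077 and 3615 at E50, 4453, 4369 and 5033 at E60, and 7030, 6067 and 6399 at E70. Its stages did not overlap, and it rose by 0.86 at E70 against E50 (SE 0.21, adjusted p = 0.0305), while TCF7L2 fell in that comparison. The difference between the changes of LEF1 and TCF7L2 was not tested. The call of TCF7L2 was lost after quantile normalization, after median centring and with array weights. SMARCA4, an ATPase of a chromatin remodelling complex, rose by 1.06 at E60 against E50 (adjusted p = 0.0404) and by 1.26 at E70 against E50 (adjusted p = 0.0222). Its other probe set had -2.86 and -1.72 and did not pass (adjusted p = 0.116 and 0.314), so the direction of SMARCA4 also differs between its probe sets.

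Of 3 catenin partners, CDH1, E-cadherin, rose by 1.17 at E70 against E50 (SE 0.26, adjusted p = 0.0213) and CTNND1, p120-catenin, fell by 2.52 at E60 against E50 (SE 0.49, adjusted p = 0.0143) and was lower at E70 than at E50 (adjusted p = 0.00617). CTNND1 read 238, 330 and 621 at E50, 64.5, 56.1 and 70.7 at E60, and 27.9, 32.7 and 77.9 at E70, above background on 2, 3 and 1 of 3 arrays, so no size is given for E70. The size at E60 is uncertain too, since its geometric mean there, 63.5, was under the geometric mean background of the E50 arrays, 194. CDH1 was also in the list of epithelial markers. Of 7 target genes 2 were called lower at E60 and 3 at E70 than at E50, beside 13.7% and 14.3% of all genes. PPARD, a nuclear receptor, fell by 1.62 at E60 against E50 (adjusted p = 0.0239) and fell by 1.63 at E70 against E50 (adjusted p = 0.0228). The sizes for PPARD are uncertain as well. Its geometric means at E60 and E70, 179 and 178, were under the geometric mean background of the E50 arrays, 194. MMP7, a protease, was lower in both comparisons (adjusted p = 0.0356 and 0.0111), and MYC, a growth regulator, fell by 1.07 at E70 against E50 only (adjusted p = 0.0339). MMP7 was above background on 2 of 3 E50 arrays, 2 of 3 E60 arrays and 1 of 3 E70 arrays, and its later means were under the background of their stage, so no size is given.

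**Figure D4:**
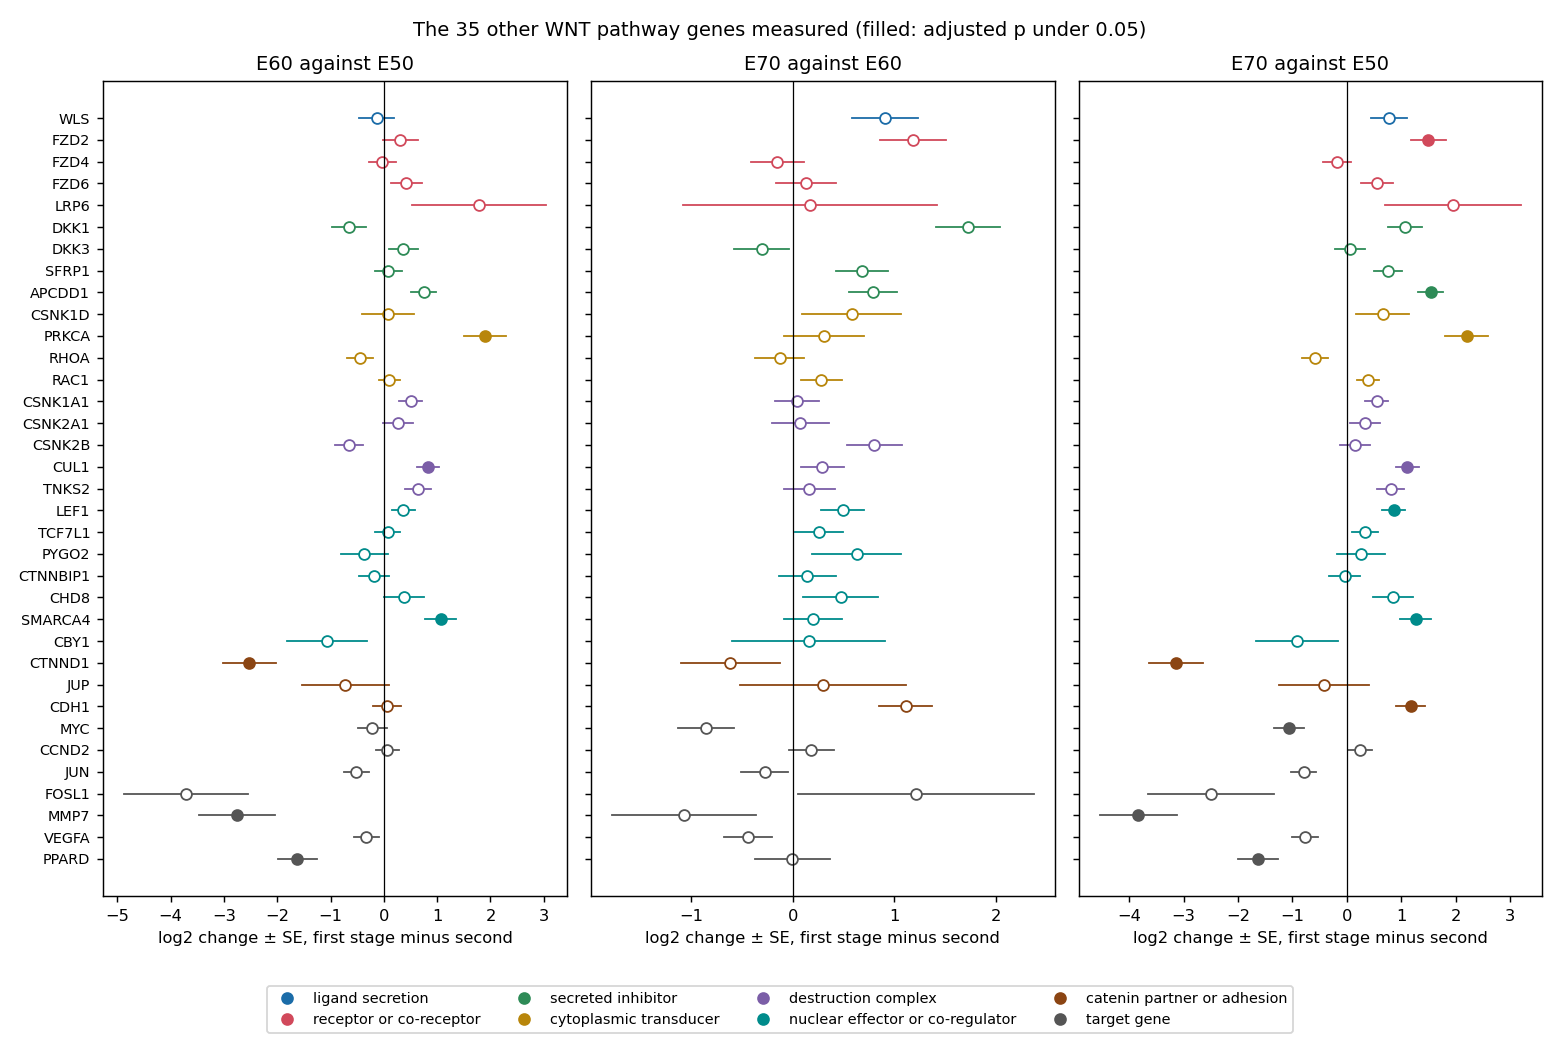
Log2 change ± SE, later stage minus earlier, of the brightest probe set of the 35 other WNT genes measured, coloured by role and filled where the adjusted p is under 0.05. None was called at E70 against E60, and at E70 against E50 the 7 called higher included FZD2, APCDD1 and LEF1 and the 4 called lower included the target genes MYC, MMP7 and PPARD.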

How the data were processed

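RNA of 9 samples, 3 per stage, was read on Affymetrix porcine arrays. The deposited table holds intensity values, the MAS5 signals that the authors computed per array with a common target, per the labels and the methods. Members and lists were chosen with earlier results of these data known. Signals below 1 were raised to 1 before the log2. The 124 array controls were set aside. All 9 arrays entered 1 fit in limma 3.58.1 under R 4.3.3, without covariates, with Benjamini-Hochberg adjustment. Symbols came from the platform's table, where 10069 tested probe sets had 1 symbol and 198 several, and those of the members were the RefSeq symbols of the same gene numbers. A probe set was called above background over the 95th percentile of 23 background controls on that array. A gene was represented by its brightest probe set over the 9 arrays. The 7 members, any WNT gene called between a pair of stages, and the 2 genes most like each member above background on all arrays were named, and DKK1 was added after its values were seen. The code was tested on simulated data. The alternatives were quantile normalization, median centring, a floor of 16, dim probe sets left out, array weights, the replicate number as a block, each array left out, only the 2 stages compared, and the mean over a gene's probe sets. The number of arrays limits the precision, and no read depth applies.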

Additional observations from a re-analysis of the deposited data

How the results depend on the processing

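The calls against E50 depended on how the arrays were weighted and scaled. Member genes called, 3 at E60 against E50, 4 at E70 against E50 and 4 over the 3 stages, became 0, 0 and 1 with array weights, and 4 at E70 against E50 became 2 after quantile normalization, 2 after median centring and 1 with only the 2 stages compared. The call of FZD5 at E70 against E60, and that of its difference between the steps, became 0 after quantile normalization. Leaving out 1 array gave 0 to 4 member genes at E60 against E50, 2 to 4 at E70 against E50, 0 to 1 at E70 against E60, 0 to 1 for the difference between the steps and 2 to 4 over the 3 stages.

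Other WNT genes called were 6 at E60 against E50, with 3 after quantile normalization, 11 after median centring, 0 with array weights and 3 with only the 2 stages, and 0 to 8 with 1 array left out. At E70 against E50 11 were called, with 18 after median centring, 3 with array weights and 4 with only the 2 stages, and 5 to 14 with 1 array left out. At E70 against E60 0 became 5 with array weights, 1 without dim probe sets, 2 with only the 2 stages and 1 with the mean over probe sets. For the difference between the steps 0 were called, and 5 of 35 had an unadjusted p under 0.05 in limma, against 1478 of 6765 genes. The 0 called became 1 with array weights, 1 without dim probe sets and 2 with the mean over probe sets, and 0 to 2 with 1 array left out. Over the 3 stages 10 became 6 after quantile normalization, 16 after median centring and 5 with array weights, and 4 to 12 with 1 array left out.

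All probe sets called were 4436 at E60 against E50 (1871 with array weights, 2087 with only the 2 stages, 1758 to 5975 with 1 array left out), 4510 at E70 against E50 (2015, 1877 and 2252 to 6116), 101 at E70 against E60 (934 and 420, also 67 after median centring and 172 without dim probe sets, 30 to 149), 478 for the difference between the steps (1424 with array weights, 131 after quantile normalization, 1170 after median centring, 925 with the floor of 16, 1402 without dim probe sets, 9 to 2042) and 4247 over the 3 stages (2510 with array weights, 2307 to 5724).

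The replicate numbers did not pair the arrays. Deviations from the stage means correlated between -0.02 and 0.03 for the 9 pairs with the same number and between -0.04 and 0.03 for the 18 others. With the replicate number as a block, the member genes called were 1 at E60 against E50, 0 at E70 against E60, 0 for the difference between the steps and 2 over the 3 stages, the other WNT genes 6 at E70 against E50 and 3 over the 3 stages, and all probe sets 2811, 2944, 9, 0 and 2158 at E60 against E50, E70 against E50, E70 against E60, between the steps and over the 3 stages. FZD5 at E70 against E60 then had adjusted p = 0.136, TCF4 at E60 against E50 0.0669, and CTBP2 0.0551 at E60 against E50 and 0.0656 at E70 against E50.

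No called change of a member reversed. Changes near 0 did, and for each the range with 1 array left out follows its values. At E60 against E50 DKK2 became -0.075 after quantile normalization (-0.073 to 0.35 with 1 array left out), and its probe set Ssc.30925.1.A1_at 0.18 after quantile normalization and 0.75 after median centring (-0.20 to 0.10). CTNNB1 Ssc.14003.2.S1_at became 0.097 and 0.70 under the same scalings (-0.42 to 0.14), Ssc.11457.1.A1_at 0.57 after median centring, and Ssc.14003.4.S1_at 0.64 after median centring (-0.56 to 0.17). At E70 against E50 DKK2 became 0.70 after median centring and 0.37 with the mean over probe sets (-0.21 to 0.21). CTNNB1 became 0.53 after quantile normalization, 0.71 after median centring and 0.016 with the mean over probe sets (-0.084 to 0.062), and Ssc.11457.1.A1_at 0.36 after median centring. With 1 array left out Ssc.14003.2.S1_at had -0.079 to 0.49, Ssc.14003.4.S1_at -0.34 to 0.39 and Ssc.30749.1.S1_at -0.12 to 0.35. At E70 against E60 TCF7L2 became -0.047 after quantile normalization, -0.054 after median centring and -0.083 with the mean over probe sets (-0.15 to 0.18), its other probe set had -0.40 to 0.095 with 1 array left out, DKK2 became 0.31 and CTBP2 0.029 with the mean over probe sets, and WNT10B had -0.18 to 1.88 with 1 array left out. The cause of these shifts was not tested.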
